A study of Mus musculus with 10 samples.

Results

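The genes described here are 8 solute carriers that hepatocytes use, or are thought to use, to take up organic anions from blood: Slc10a1, Slco1a1, Slco1a4, Slco1b2, Slco2b1, Slc22a7, Slc22a27 and Slc22a30. They were listed by name, and each was read through the single array feature whose annotation gives its symbol alone, so that all 8 members were found among the 19938 genes tested. None of the 8 is mainly a cation carrier. Liver RNA came from 5 Phf2 mice, which received an adenovirus encoding Phf2, a histone demethylase, and from 5 GFP mice, which received one encoding green fluorescent protein, each liver on 1 Affymetrix Gene ST array. All 10 mice were male C57BL/6J animals aged 8 weeks at tail vein injection, and they were studied fed, 3 weeks later. Every mouse thus carried an adenovirus, no uninjected mice are among these arrays, and the sources used here do not give the promoter of either transgene in this vector. Values are log2 RMA values, in which a difference of 1 is a doubling, and values of different genes are not compared as levels.

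Uptake carriers sit in the sinusoidal membrane of the hepatocyte, which faces the blood. Sodium-dependent carriers of the SLC10 family take up conjugated bile acids, organic anion transporting polypeptides of the SLCO family take up bile acids, bilirubin, steroid conjugates and many drugs without sodium, and organic anion transporters of the SLC22 family take up smaller anions. In mouse liver several of these carriers are expressed unequally in males and females under the control of growth hormone and sex steroids.

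Of the 8 transporters, 6 were lower and 1 was higher in Phf2 livers than in GFP livers at an adjusted p under 0.05 from limma, and 1, Slco1b2, did not pass. Across all 19938 genes, 4.24% were called lower and 5.43% higher. This balance turned under other scalings, with 5.35% lower and 5.14% higher after quantile normalization and 4.81% lower and 4.16% higher after median centring, while the counts of members stayed the same. All 8 members lay above the median level of the genes. In a fit of only the 11194 genes above the median of all features, 8.29% were called lower and 9.78% higher. The counts of members were the same there. On 4 arrays, GFP replicate 1 and Phf2 replicates 2, 3 and 4, pancreatic RNA was abundant. Their pancreatic marker mean lay above 9, a limit set after the data were seen. Without them 1 transporter, Slco1a1, was called lower and Slc22a27 higher, against 0.607% and 1.07% of all genes, in a fit of 2 Phf2 and 4 GFP arrays. That fit kept GFP replicate 2, at 8.74, and so was not free of pancreatic RNA. The largest fall was in Slco1a1, by 2.68 on the log2 scale, and the only rise was in Slc22a27, by 3.93. The median log2 fold change (Phf2 minus GFP) was -0.68 over the 8 transporters and -0.01 over all genes. In 5 of the lower members and in the higher one the 5 Phf2 values did not overlap the 5 GFP values, whereas 4.36% of all genes lay lower and 4.71% lay higher without overlap. Such a separation gives p = 0.00794 in a two-sided exact permutation test, the smallest that 5 against 5 arrays allow. In whole liver RNA, fewer cells of a type and less RNA per cell cannot be told apart.

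**Figure D1:**
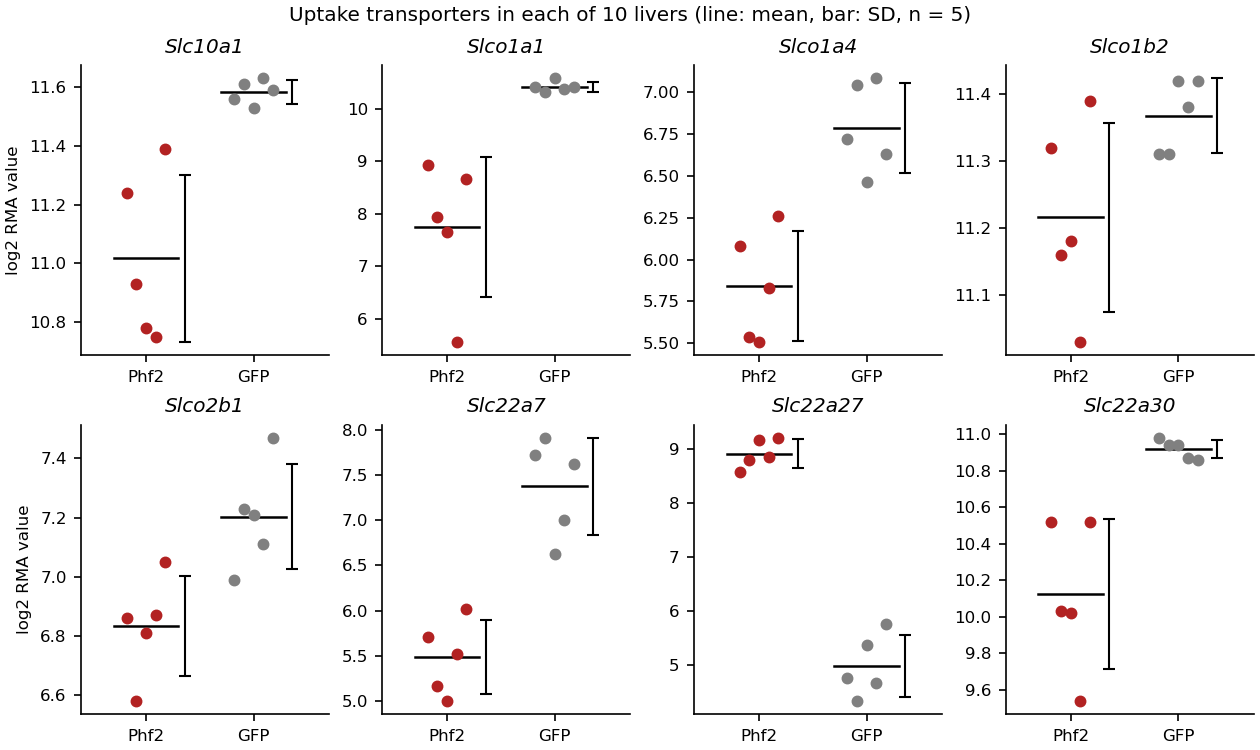
log2 RMA value of each transporter (vertical axis, with its own scale in each panel) in the 5 Phf2 livers (red, left) and the 5 GFP livers (grey, right). Each point is 1 array in replicate order, the line is the mean and the bar is the SD. The 2 groups overlap in Slco1b2 and Slco2b1, and Slc22a27 is the only panel in which the Phf2 values are the higher ones.

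**Figure D2:**
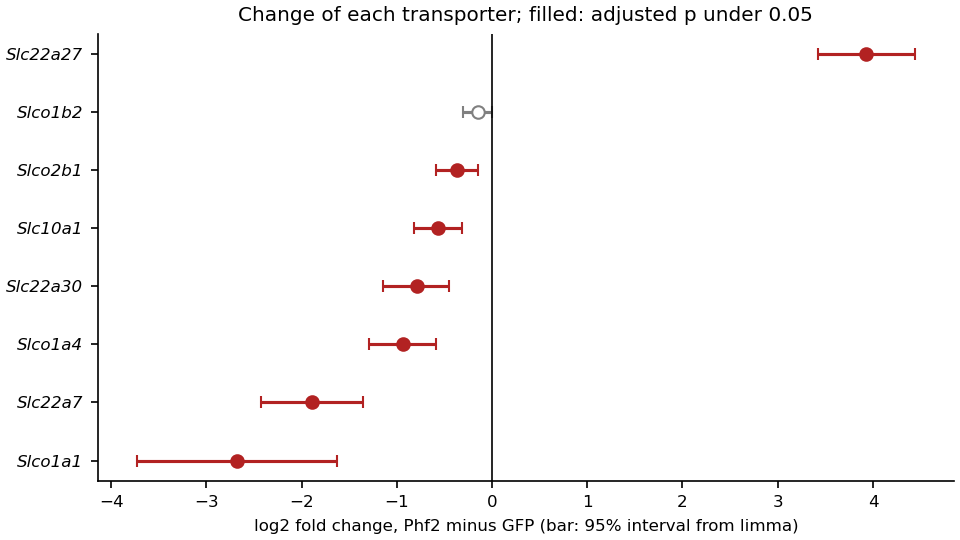
log2 fold change of each transporter (horizontal axis, Phf2 minus GFP) with its 95% interval from limma. Filled points had an adjusted p under 0.05. The changes ran between -2.68 in Slco1a1 and 3.93 in Slc22a27.

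Arrays correlated with each other at 0.9783 to 0.9932 over all features. The Phf2 feature (10409076) read 6.31, 6.27, 6.58, 6.45 and 6.37 in Phf2 mice and 6.50, 6.54, 6.53, 6.32 and 6.34 in GFP mice (adjusted p = 0.751 from limma). It is not stated whether this feature covers the transgene, and it is therefore no test of the labels. Hepatocyte markers such as albumin were abundant on every array, but their mean lay between 11.86 and 12.23 in Phf2 livers and between 12.23 and 12.34 in GFP livers, and 4 of the 9 measured, among them Cps1, were lower in Phf2 livers. All 7 markers of T cells and NK cells were higher, with means of 6.21 to 7.15 in Phf2 livers and 5.20 to 5.63 in GFP livers. By limma none of 5 bile duct cell markers and none of 8 stellate cell markers was called (1 and 5 had an unadjusted p under 0.05), 1 of 6 endothelial markers was higher and 3 of 8 Kupffer cell markers were lower. None of 7 exocrine pancreas markers was called by limma, and 0 had an unadjusted p under 0.05, but their mean was uneven, at 6.29, 10.89, 10.29, 9.07 and 6.55 in Phf2 replicates 1 to 5 and at 12.36, 8.74, 7.43, 6.61 and 8.12 in GFP replicates 1 to 5. Pancreatic RNA was thus most abundant in GFP replicate 1 and in Phf2 replicates 2, 3 and 4.

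**Figure D3:**
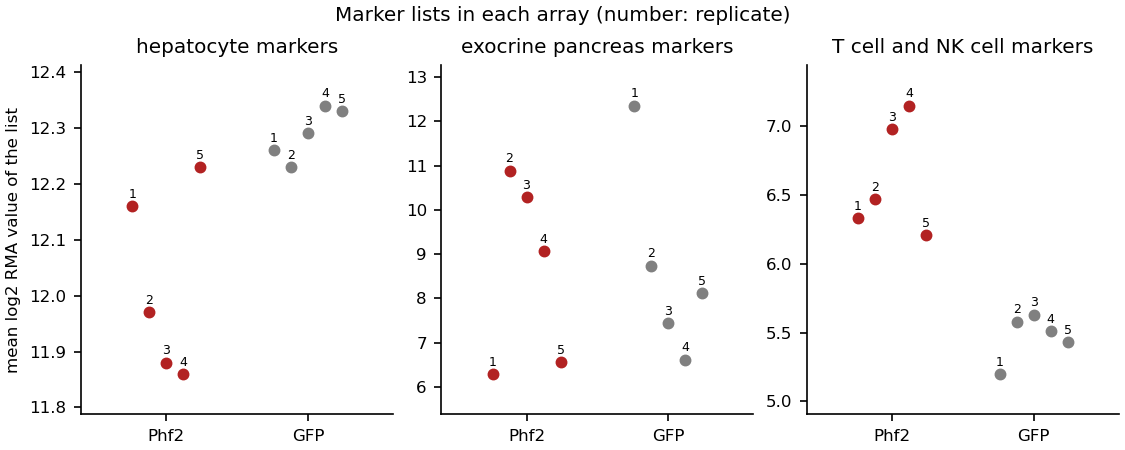
Mean log2 RMA value of the hepatocyte, exocrine pancreas and T cell and NK cell marker lists (vertical axis) in each Phf2 array (red, left) and GFP array (grey, right), with the replicate number beside each point. Phf2 replicates 2, 3 and 4 have the lowest hepatocyte means, between 11.86 and 11.97, and high pancreas means, between 9.07 and 10.89.

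The promoters of the genes at the ends of this range, and of their neighbours, are shown because genes that lie side by side moved unequally. Sequences are those of RefSeq, assembly GRCm38.p6, which held an entry for 7 of the 8 members, and each line is the 250 bases before the annotated start, 5′ to 3′ on the gene's own strand. For description, 5 short motifs were searched on both strands: TTCNNNGAA, the core bound by STAT5, CACGTG, an E-box, TGACNNNGC, the core of the antioxidant response element, AGGTCA, the element that nuclear receptors bind, and GTTAAT, the core of an HNF1 site. Capitals mark a match.
Slco1a1, chr6:141946963-141947212, minus strand: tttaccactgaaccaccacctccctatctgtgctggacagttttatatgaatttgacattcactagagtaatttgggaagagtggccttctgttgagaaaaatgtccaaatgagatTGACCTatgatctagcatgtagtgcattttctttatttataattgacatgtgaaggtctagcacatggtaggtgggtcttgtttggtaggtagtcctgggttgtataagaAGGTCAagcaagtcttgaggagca
Slco1a4, chr6:141856221-141856470, minus strand: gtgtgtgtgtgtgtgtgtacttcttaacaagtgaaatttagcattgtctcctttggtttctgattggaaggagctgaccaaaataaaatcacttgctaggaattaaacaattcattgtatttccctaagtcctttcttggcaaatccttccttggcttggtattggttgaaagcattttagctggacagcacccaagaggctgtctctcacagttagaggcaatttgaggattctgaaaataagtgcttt
Slc22a27, chr19:7966028-7966277, minus strand: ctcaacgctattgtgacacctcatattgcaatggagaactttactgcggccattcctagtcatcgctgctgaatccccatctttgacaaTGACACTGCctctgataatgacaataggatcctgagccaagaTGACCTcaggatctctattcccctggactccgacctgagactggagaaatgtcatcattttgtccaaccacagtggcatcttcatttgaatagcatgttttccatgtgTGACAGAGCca
Slc22a30, chr19:8405106-8405355, minus strand: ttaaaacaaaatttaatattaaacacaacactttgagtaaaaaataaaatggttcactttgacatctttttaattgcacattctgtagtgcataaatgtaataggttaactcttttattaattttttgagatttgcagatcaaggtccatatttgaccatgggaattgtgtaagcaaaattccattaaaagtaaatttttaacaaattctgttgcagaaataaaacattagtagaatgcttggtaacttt
Slc22a29, chr19:8218901-8219150, minus strand: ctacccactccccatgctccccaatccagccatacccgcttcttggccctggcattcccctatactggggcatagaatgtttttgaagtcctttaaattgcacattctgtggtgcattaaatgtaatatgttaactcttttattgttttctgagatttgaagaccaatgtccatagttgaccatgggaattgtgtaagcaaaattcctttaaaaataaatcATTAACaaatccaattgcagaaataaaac

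The Slco1a1 window held AGGTCA 24 bases before the start and, on the other strand, 134 bases before it, a motif present in 14.0% of all 32851 windows of this length. That of Slc22a27 held TGACNNNGC 161 and 11 bases before the start, and AGGTCA on the other strand 119 bases before it. TGACNNNGC was present in 10.2% of all windows. The windows of Slco1a4 and Slc22a30 matched none of the 5 motifs, and that of Slc22a29 matched GTTAAT once, on the other strand, as 6.43% of windows did. Over the aligned columns, the windows of Slco1a1 and Slco1a4 were 47.5% identical, that of Slc22a30 was 65.2% identical to that of Slc22a29, 93.0% to that of Slc22a28 and 48.9% to that of Slc22a27. Among the members not shown, TTCNNNGAA occurred in 1 window each of Slc10a1, Slco1b2 and Slco2b1, against 7.02% of all windows. AGGTCA occurred in 1 window each of Slc10a1 and Slco1b2, GTTAAT in that of Slco1b2, and CACGTG, present in 6.02% of all windows, in none.

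Slc10a1 encodes NTCP, the sodium-dependent carrier that takes up most of the conjugated bile acids returning from the gut. Slc10a1 (feature 10401289) read 11.24, 10.93, 10.78, 10.75 and 11.39 in Phf2 replicates 1 to 5, and 11.56, 11.61, 11.53, 11.63 and 11.59 in GFP replicates 1 to 5. All Phf2 values lay under all GFP values, with Phf2 replicates 1 and 5 nearest to them. The means were 11.02 ± 0.29 in Phf2 livers and 11.58 ± 0.04 in GFP livers (SD, n = 5 each), a log2 change of -0.57 ± 0.11 (standard error, limma's adjusted p = 0.00767). Without the 4 arrays rich in pancreatic RNA it was -0.27 (adjusted p = 0.287).

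Slco1a1 encodes Oatp1a1, an uptake carrier of steroid conjugates and bile acids that male mouse liver expresses far more than female liver. It had the largest fall of the 8. Slco1a1 (feature 10548978) read 8.93, 7.93, 7.65, 5.56 and 8.67 in Phf2 replicates 1 to 5, and 10.42, 10.33, 10.58, 10.38 and 10.41 in GFP replicates 1 to 5. The GFP livers were close together and the Phf2 livers were spread out below them, Phf2 replicate 4 far under the others. The means were 7.75 ± 1.33 in Phf2 livers and 10.43 ± 0.10 in GFP livers (SD, n = 5 each), which is 6.39-fold lower in Phf2 livers, with a log2 fold change of -2.68 (95% interval -3.73 to -1.63, adjusted p = 0.00398 from limma). Without the 4 pancreas-rich arrays the change was -1.63 (adjusted p = 0.000198).

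Slco1a4, next to Slco1a1 on chromosome 6, encodes Oatp1a4, a carrier of bile acids and cardiac glycosides that activators of the receptors CAR and PXR induce in mouse liver. Slco1a4 (feature 10548996) read 6.08, 5.54, 5.51, 5.83 and 6.26 in Phf2 replicates 1 to 5, and 6.72, 7.04, 6.46, 7.08 and 6.63 in GFP replicates 1 to 5. The groups were separate, though Phf2 replicate 5 and GFP replicate 3 lay close to each other. The means were 5.84 ± 0.33 in Phf2 livers and 6.79 ± 0.27 in GFP livers (SD, n = 5 each), 1.92-fold lower in Phf2 livers (log2 fold change -0.94, standard error 0.16, adjusted p = 0.00278 from limma). The call was lost without the pancreas-rich arrays, at -0.63 (adjusted p = 0.152).

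Slco1b2 encodes Oatp1b2, which takes up bile acids, bilirubin and drugs and is the mouse counterpart of the human OATP1B carriers. It was the member that did not pass the test. Slco1b2 (feature 10542615) read 11.32, 11.16, 11.18, 11.03 and 11.39 in Phf2 replicates 1 to 5, and 11.31, 11.31, 11.42, 11.38 and 11.42 in GFP replicates 1 to 5. Phf2 replicates 1 and 5 lay among the GFP values and the other 3 below them. The log2 fold change was -0.15 with a 95% interval of -0.31 to 0.00 (adjusted p = 0.235 from limma), and the two-sided exact permutation test gave p = 0.0714.

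Slco2b1 encodes Oatp2b1, a carrier of steroid sulfates that is also found in gut and other tissues. Slco2b1 (feature 10565819) read 6.86, 6.58, 6.81, 6.87 and 7.05 in Phf2 replicates 1 to 5, and 6.99, 7.23, 7.21, 7.11 and 7.47 in GFP replicates 1 to 5. The groups overlapped, since Phf2 replicate 5 lay above GFP replicate 1. The means were 6.83 ± 0.17 in Phf2 livers and 7.20 ± 0.18 in GFP livers (SD, n = 5 each), a log2 change of -0.37 ± 0.10 (standard error, limma's adjusted p = 0.0374, two-sided exact permutation p = 0.0159). The call was lost in 11 of 21 alternative fits. They included 8 of the 10 that left out 1 array (all but GFP replicate 1 and Phf2 replicate 5), in which the adjusted p was 0.0529 to 0.0924, and the one without the pancreas-rich arrays (-0.30, adjusted p = 0.399).

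Slc22a7 encodes OAT2, an organic anion transporter of the sinusoidal membrane. Slc22a7 (feature 10451291) read 5.71, 5.17, 5.00, 5.52 and 6.02 in Phf2 replicates 1 to 5, and 7.72, 7.91, 6.63, 7.00 and 7.62 in GFP replicates 1 to 5. Every Phf2 value was below every GFP value, and the GFP livers themselves differed, with GFP replicates 3 and 4 lowest. The means were 5.48 ± 0.41 in Phf2 livers and 7.38 ± 0.54 in GFP livers (SD, n = 5 each), 3.71-fold lower in Phf2 livers (log2 fold change -1.89, standard error 0.25, adjusted p = 0.00052 from limma). Leaving out the pancreas-rich arrays gave -1.43 and ended the call (adjusted p = 0.0539).

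Slc22a27 belongs to a run of organic anion transporter genes on mouse chromosome 19 in the order Slc22a19, Slc22a26, Slc22a27, Slc22a28, Slc22a29 and Slc22a30, followed by Slc22a8 and Slc22a6. Slc22a27 (feature 10465734) read 8.57, 8.79, 9.16, 8.85 and 9.21 in Phf2 replicates 1 to 5, and 4.76, 4.34, 5.38, 4.68 and 5.77 in GFP replicates 1 to 5. The highest GFP value lay 2.80 under the lowest Phf2 value, and 3 of the 5 GFP values lay under 5.06, the lowest median of any array. The means were 8.92 ± 0.27 in Phf2 livers and 4.98 ± 0.57 in GFP livers (SD, n = 5 each), 15.3-fold higher in Phf2 livers (log2 fold change 3.93, 95% interval 3.42 to 4.44, adjusted p = 1.54e-06 from limma). The change was 3.85 without the pancreas-rich arrays (adjusted p = 0.000634).

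Slc22a30, further along that run, moved the opposite way. Slc22a30 (feature 10465764) read 10.52, 10.03, 10.02, 9.54 and 10.52 in Phf2 replicates 1 to 5, and 10.98, 10.94, 10.94, 10.87 and 10.86 in GFP replicates 1 to 5. The GFP livers lay within a narrow band, and the Phf2 livers lay below it, Phf2 replicate 4 lowest. The means were 10.12 ± 0.41 in Phf2 livers and 10.92 ± 0.05 in GFP livers (SD, n = 5 each), 1.73-fold lower in Phf2 livers (log2 fold change -0.79, standard error 0.16, adjusted p = 0.0069 from limma). Without the pancreas-rich arrays it was -0.38 and not called (adjusted p = 0.086).

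The genes of this run resemble each other in sequence, so a feature may also read RNA of a neighbour, and the levels of Slc22a27 and Slc22a30 are uncertain to that extent. A further feature that the annotation gives to Slc22a28, Slc22a29 and Slc22a30 together, left out of the gene tests, averaged 9.13 ± 0.43 in Phf2 livers and 10.15 ± 0.22 in GFP livers (SD, n = 5 each). Its difference of -1.02 (Phf2 minus GFP, two-sided exact permutation p = 0.00794) ran in the same direction as that of Slc22a30. Slc22a29 has a feature of its own (10465753), which read 6.25, 6.20, 6.12, 6.73 and 6.48 in Phf2 livers and 5.08, 4.70, 5.23, 4.81 and 5.00 in GFP livers. It was higher in every Phf2 liver, and the log2 fold change was 1.39 ± 0.13 (standard error, adjusted p = 3.61e-05 from limma). Slc22a26, beside Slc22a27, was also higher, by 0.47 (standard error 0.09, adjusted p = 0.00798).

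Whether related carriers changed by different amounts was read from the difference of their log2 values within each array, for 4 pairs. The fall of Slco1a1 exceeded that of Slco1a4, with a difference of -1.73 on the log2 scale (standard error 0.58), and that of Slco1b2, with a difference of -2.52 (standard error 0.54). Against Slco1a4, the 5 Phf2 differences were separate from the 5 GFP differences, with p = 0.00794 by the two-sided exact permutation test. Against Slco1b2 they had to separate and are given as a description. Slco1b2 lay between 11.03 and 11.42 on all 10 arrays, while a gap of 1.39 lay between the groups in Slco1a1. Adjustment over the 4 pairs is no further support, since the other pairs were bound to give the smallest p. In the other two pairs the members moved in opposite directions without overlap, so that their differences had to separate and are given as a description. The change of Slc22a27 lay 4.73 above that of Slc22a30 (standard error 0.34) and 5.82 above that of Slc22a7 (standard error 0.46).

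The members that fell did not fall equally in the 5 Phf2 livers. In 6 of the 8 members, all but Slco2b1 and Slc22a27, Phf2 replicates 1 and 5 were the ones nearest to the GFP mean. For Slco1a1 the distances from the GFP mean were -1.49 and -1.75 in Phf2 replicates 1 and 5 and -2.50, -2.77 and -4.86 in Phf2 replicates 2, 3 and 4. For Slc22a7 they were -1.67 and -1.36 in Phf2 replicates 1 and 5 and -2.20, -2.38 and -1.85 in Phf2 replicates 2, 3 and 4. Slc22a27 showed no such order, at 3.58, 3.80, 4.18, 3.86 and 4.23 in Phf2 replicates 1 to 5. The SD was larger in Phf2 livers than in GFP livers for 5 of the 8 transporters. That is near an even split, and the share of all genes is not given here.

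**Figure D4:**
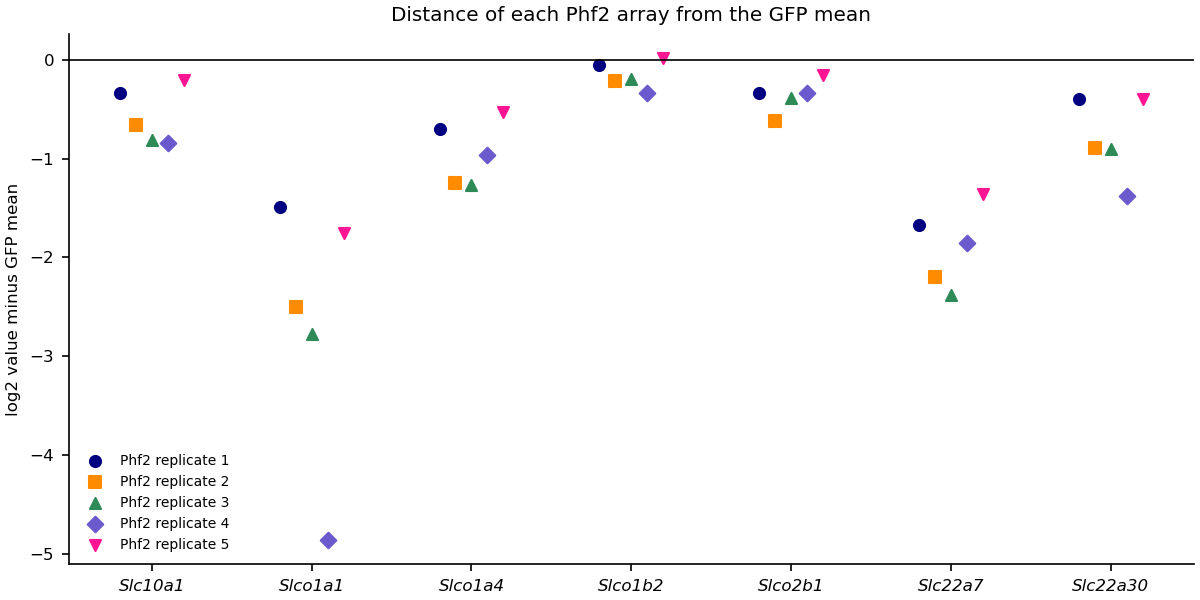
log2 RMA value of each Phf2 array minus the GFP mean (vertical axis) for 7 transporters (horizontal axis), with 1 symbol and colour for each Phf2 replicate. Slc22a27, at 3.58 to 4.23, is left out for scale. Phf2 replicates 1 and 5 lie nearest to 0 in each gene but Slco2b1, and Phf2 replicate 4 reaches -4.86 in Slco1a1.

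Phf2 replicates 2, 3 and 4, in which these members were lowest, had the most pancreatic RNA of the Phf2 arrays. They also had the lowest hepatocyte marker means and the highest T and NK cell marker means. The latter were 6.47, 6.98 and 7.15, against 6.33 and 6.21 in Phf2 replicates 1 and 5. Among these arrays Phf2 replicate 4 had the least pancreatic RNA (9.07, against 10.89 and 10.29). It was farthest from the GFP mean in 4 of the 8 members. GFP replicate 1 had the highest pancreatic marker mean of all, and the 8 transporters there averaged 8.81, inside the GFP range of 8.77 to 8.97. Phf2 replicate 5 also averaged 8.81, because this mean adds the rise of Slc22a27 to the falls. It therefore cannot show whether the other members were low on an array. Without the 4 arrays whose pancreatic mean lay above 9, all 8 changes kept their sign, Slco1b2 at -0.03 (adjusted p = 0.958 from limma). With the pancreatic marker level as a covariate, limma called 6 members lower and 1 higher, against 4.37% and 5.66% of all genes. In that fit Slco1a1 was at -2.68, Slc22a7 at -1.89 and Slc10a1 at -0.57 on the log2 scale. The pancreatic markers had a median log2 fold change of only -0.06 between the groups. A covariate so balanced could hardly move these changes, so that fit cannot show what part pancreatic RNA had in them. The part of pancreatic RNA in these falls was not tested beyond these fits. That of T and NK cells and of the lower hepatocyte markers was not tested.

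Deviations from the group means give a description of which members varied together over the 10 arrays. Genes read from 1 array share whatever shifts that array, and Phf2 replicate 4 weighs heavily in them. Pearson's r was 0.96 between Slco1a1 and Slc22a30, 0.89 between Slc10a1 and Slc22a30 and 0.87 between Slco1b2 and Slc22a30, whereas Slc22a27 ranged between -0.45 with Slco1a4 and 0.57 with Slco2b1. Over all genes, the one most like Slc22a30 was Hsd3b5 (r = 0.979), a steroid dehydrogenase of male mouse liver, and the one most like Slc10a1 was Arg1 (r = 0.981), the arginase of the urea cycle. The nearest to Slco1a1 was Rell2 (r = 0.970), to Slco1a4 Ccdc9b (r = 0.967), to Slc22a7 Arsg (r = 0.966), to Slco1b2 Sucnr1 (r = 0.959), to Slc22a27 Dynlt3 (r = 0.958) and to Slco2b1 Cdc37l1 (r = 0.957). Hsd3b5 and Arg1 were called lower, whereas none of these others was called (adjusted p 0.0847 to 0.863 from limma). Each r is the highest among all genes on only 10 arrays, so high values were bound to appear. Shared control was not tested.

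Most relatives of the members outside the list did not pass the test. For this list and those that follow, the shares of all genes were 4.24% lower and 5.43% higher, with a median of -0.01. Of 16 other Slco and Slc10 genes measured, 2 were lower and 14 were not called, with a median log2 fold change of -0.06, and 11 of them averaged below the median of all features. Slco2a1, a prostaglandin transporter, read 8.47 to 8.68 in Phf2 livers and 9.03 to 9.31 in GFP livers (log2 fold change -0.58, standard error 0.07, adjusted p = 0.000313 from limma). Slc10a5, an orphan relative of Slc10a1, read 7.37 to 7.92 in Phf2 livers and 7.85 to 8.08 in GFP livers, with slight overlap (log2 fold change -0.39, adjusted p = 0.0284). Of 19 other Slc22 genes, Slc22a29 and Slc22a26 were higher, Slc22a18 was lower by 0.28 (log2 fold change -0.28, adjusted p = 0.0245) and 16 were not called, with a median of 0.04 and 9 below the median of all features.

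Regulators and partners of the transporters, such as nuclear receptors and liver transcription factors, changed in both directions. Of 17 measured, 2 were higher, 5 were lower and 10 were not called, with a median log2 fold change of -0.14. Onecut1, which encodes the liver transcription factor HNF6, had the largest fall in the list, with 6.21 to 7.61 in Phf2 livers and 7.22 to 8.72 in GFP livers, which overlap (log2 fold change -1.26, standard error 0.28, adjusted p = 0.0134 from limma). Rxra, the shared partner of CAR, PXR and FXR, read 7.83 to 7.92 in Phf2 livers and 8.37 to 8.61 in GFP livers (log2 fold change -0.63, adjusted p = 5.69e-05). Nr1i3, which encodes CAR, had a log2 fold change of -0.49 (adjusted p = 0.012). The genes that rose were Mlxipl, which encodes the glucose-responsive factor ChREBP (log2 fold change 1.22, adjusted p = 6.1e-06), and Nfe2l2, which encodes the antioxidant factor Nrf2 (0.98, adjusted p = 7.55e-05).

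Since Slco1a1 is a male-biased gene of mouse liver, other genes with a known bias were set beside it. Of 12 male-biased genes measured, 8 were lower and 4 were not called, and the median of the list was -0.79. The mean of the list was 10.26, 9.70, 9.64, 9.14 and 10.15 in Phf2 replicates 1 to 5 and 10.89 to 11.08 in GFP livers. It too was lowest in Phf2 replicates 2, 3 and 4. Those arrays were rich in pancreatic RNA, low in hepatocyte markers and highest in T and NK cell markers. The largest falls were in Hsd3b5, with 3.83 to 8.00 in Phf2 livers and 10.94 to 11.20 in GFP livers (log2 fold change -4.93, adjusted p = 0.000322 from limma), in Cyp7b1, an oxysterol hydroxylase (-2.39, adjusted p = 7.55e-05), and in Nudt7, a hydrolase of coenzyme A (-1.16, adjusted p = 0.0034). Of 14 female-biased genes measured, 6 were higher and 8 were not called, with a median of 0.35. Cyp2b9, a cytochrome P450, rose most, with 10.65 to 11.15 in Phf2 livers and 4.88 to 7.59 in GFP livers (log2 fold change 4.87, adjusted p = 1.55e-05), followed by Cyp2b13 (2.62, adjusted p = 7.55e-05) and Cyp17a1 (2.16, adjusted p = 0.000198).

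**Figure D5:**
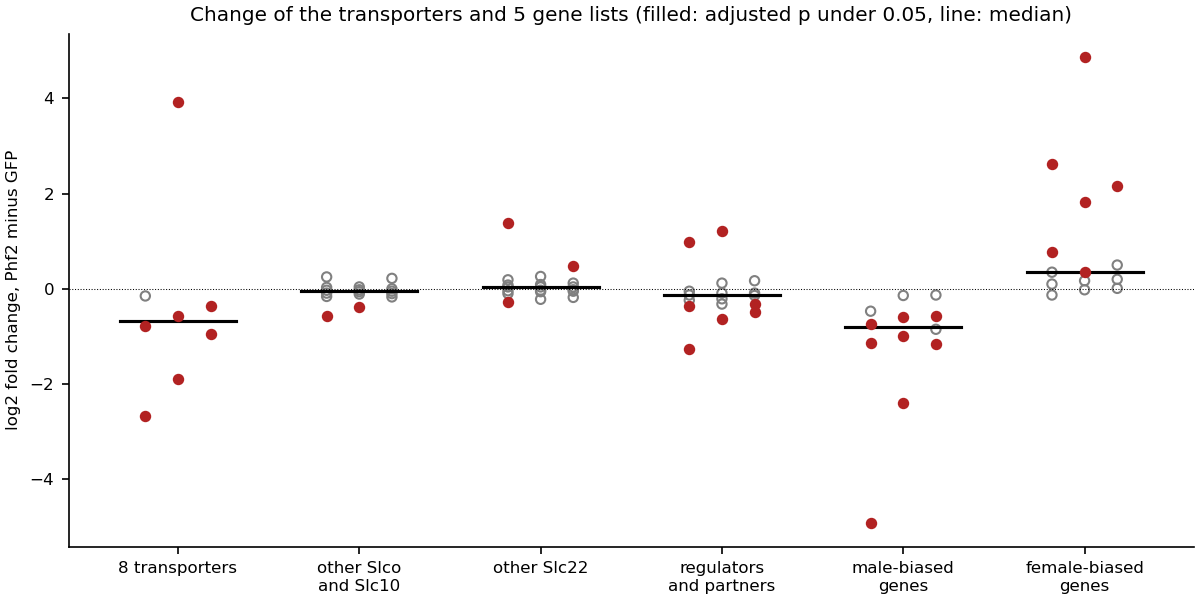
log2 fold change (vertical axis, Phf2 minus GFP) of the 8 transporters and of each gene of 5 lists. Filled red points had an adjusted p under 0.05 from limma, open grey points did not, and the line is the median of the list. The medians are -0.68 for the 8 transporters, -0.06, 0.04 and -0.14 for the other Slco and Slc10 genes, the other Slc22 genes and the regulators, and -0.79 and 0.35 for the male-biased and female-biased genes.

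The liver lobule is zoned, and the genes of its zones that were measured were either lower or not called. Of 9 pericentral genes measured, 2 were lower and 7 were not called, and of 5 periportal genes 3 were lower and 2 were not called. Cyp1a2, a pericentral cytochrome, was lower by 0.86 (log2 fold change -0.86, adjusted p = 2.41e-05 from limma), and Hal, the periportal histidase, was lower by 1.59 (log2 fold change -1.59, adjusted p = 0.00224).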

How the data were processed

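Liver RNA of 5 Phf2 and 5 GFP mice was measured on 1 array each, and the labels describe them as biological replicates. The authors normalized the arrays with RMA and used Partek for statistics, and they deposited log2 values of 35556 features. RMA adjusts background, aligns the distributions between arrays and combines the probes of a feature. The sources used here give neither tool versions nor a genome build. The methods name a human array and an RNeasy kit, whereas the feature numbers are of a mouse annotation and the labels name another kit.

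Features with 1 symbol (21789, of which 21698 were matched by gene number to RefSeq) were kept, those with several (1621) or none (12146) were not. Of several features of a gene (999 genes) the one with the highest mean was used, which left 19938 genes. The comparison of Phf2 with GFP livers used lmFit and eBayes of limma 3.58.1 (R 4.3.3) without covariates, and genes were called at a Benjamini-Hochberg adjusted p under 0.05, adjusted across the 19938 genes. A two-sided exact permutation test served for single values. Counts and medians of lists, markers included, are to be read against the shares and the median of all genes, without a test of the list. The number of arrays limits the precision.

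The members and lists were chosen with earlier results of these data known. Named genes are the 8 members, the called genes of each list that moved most (up to 3 upwards and 3 downwards), up to 2 called markers of a list, and the gene most like each member. Alternatives were the methods' t-test, a robust prior with an intensity trend, weights of arrays, only genes above the median level, quantile normalization, median centring, every feature, averaged features of a gene, a replicate block, the thresholds of the study (1.5-fold and unadjusted p) and fits without 1 array each. The pancreatic marker level as a covariate, and leaving out the 4 arrays with a mean above 9, were added after the data were seen.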

Additional observations from a re-analysis of the deposited data

Results flagged for a closer look

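Among 78 sets of 5 arrays that were looked at, 2 held a value far from the other 4, and chance alone gives about 1 in 20. The sets were the Phf2 and the GFP arrays of each member, each pair and each gene picked from a list. Other list genes were not looked at in this way. One of them, the bile duct cell marker Cftr, read 5.20 in GFP replicate 4 and at most 3.19 in the other GFP arrays. The difference of Slco1a1 and Slco1a4 on the log2 scale was lowest in Phf2 replicate 4, at -0.26, with the next Phf2 array at 2.14. Timd4, a marker of resident Kupffer cells, was highest in GFP replicate 3, at 8.45, with the next GFP array at 7.53.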

How the results depend on the processing

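In each of 21 alternative fits Slc22a27 was called higher (log2 fold change 3.77 to 4.13) and Slco1a1 lower (-2.97 to -1.63), and Slco1b2 was not called (adjusted p 0.111 to 0.958). Slc10a1, Slco1a4, Slc22a7 and Slc22a30 were called lower in 20. They lost the call without the 4 arrays rich in pancreatic RNA, where 1 member in all was called lower, at -0.27 (adjusted p = 0.287), -0.63 (0.152), -1.43 (0.0539) and -0.38 (0.086), and Slco2b1 was at -0.30 (0.399). That fit holds 2 Phf2 and 4 GFP arrays. Slco2b1, at -0.37, also lost the call under the methods' t-test (adjusted p = 0.0962) and over all features (0.0764), and it ranged between -0.42 and -0.30 when single arrays were left out. At 1.5-fold and an unadjusted p, Slc10a1 (-0.57) and Slco2b1 (-0.37) were under the fold threshold. At those thresholds 0 other Slco and Slc10 genes were lower, and 1 other Slc22 gene was higher and 0 were lower. Of the regulators 2 were lower, and 5 female-biased genes, in place of 6, were higher. The share of all genes past those thresholds is not given here, so these counts cannot be read against it. Same-numbered Phf2 and GFP arrays did not deviate together (correlations of -0.291 to -0.0421), so the numbers are only names. With the replicate block, 855 genes were called higher and 659 lower, and no call of a member changed, while 7 male-biased genes, in place of 8, were lower. After median centring 10 of them were lower. For the pairs, the paired, two-sided exact sign-change test on the same differences (-1.73, -2.52, 4.73 and 5.82) gave p = 0.0625, the smallest it can give with 5 pairs, so it cannot pass the threshold.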
